A study of Sus scrofa with 6 samples.

Results

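The genes of iron uptake, storage, export and haem breakdown were examined in the left ventricle of Dox-injected and PBS-injected piglets. Of 10 genes listed for this system, 9 have a probe set that carries their symbol alone, and these 9 genes are read by 16 of the 23999 probe sets tested. SLC40A1, the gene of the iron exporter ferroportin, carries no probe set in the annotation used and is not analysed here. A further 7 probe sets carry a listed symbol together with another gene's symbol and were not read. Doxorubicin (Dox), an anthracycline used against cancer, damages cardiac muscle and binds iron. The animals were Large White piglets, 3 injected with Dox and 3 with PBS, and RNA of the LV free wall of each was read on an Affymetrix Porcine Genome Array of its own. According to the labels, a single intravenous dose of 2.0 mg/kg Dox or PBS was given at 8 days of age and the heart was taken 3 weeks later, at 28 days of age. The methods of the paper give a slightly younger age at injection and a longer interval. Both groups were conventionally reared, the PBS-injected piglets were controls, and no sex or litter is given.

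Cells take up iron mainly as transferrin, the plasma carrier encoded by TF, which binds the transferrin receptor TFRC at the cell surface. After endocytosis, iron leaves the endosome through the transporter SLC11A2 (DMT1) and is used or stored in ferritin, a shell built of the heavy chain FTH1 and the light chain FTL. Hepcidin, the product of HAMP, lowers iron export by binding ferroportin, and HMOX1 splits haem into biliverdin, carbon monoxide and free iron. The iron regulatory proteins, encoded by ACO1 and IREB2, bind iron-responsive elements in the mRNAs of ferritin and TFRC and so set ferritin translation and TFRC mRNA stability by the iron level of the cell. Much of this control thus acts on protein synthesis, which an array of mRNA does not read.

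All levels below are MAS5 signals, which are linear intensities. Differences are given as Dox minus PBS on the log2 scale. A call needed an adjusted p no higher than 0.05 together with a fold of 2 or more, which is the threshold of the study. Background was judged by the Tag probe sets, which match no pig transcript and whose highest signal was 2.5 to 6.3, depending on the array. A signal no higher than this maximum of its own array is described as in the Tag range. No fold is read for a probe set with 4 or more of its 6 signals there.

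Of the arrays, that of Dox replicate 3 stood apart, with a mean correlation with the other arrays of 0.904 against 0.927 to 0.933 for the rest. The hybridization controls, bacterial and phage transcripts (bioB, bioC, bioD and cre) that the standard protocol adds to every array in fixed amounts, were brighter on the Dox arrays at 27 of 27 probe sets without overlap between the groups. Their geometric mean signal was 712, 758 and 782 on the PBS arrays and 974, 908 and 1259 on the Dox arrays, a mean log2 difference of 0.47. The deposited scaling thus sets the pig signals against these controls differently in the groups, and each difference below was also computed with the arrays scaled to the controls, an alternative chosen after the data were seen that lowers every log2 difference by 0.47. The ratio of the 3' to the 5' probe set of GAPDH, a measure of RNA integrity, was 1.55 on the array of Dox replicate 1 and 1.16 to 1.28 on the others. The corresponding ratio of EF1A was 11.6 against 4.24 to 4.86. Of 10 measured cardiomyocyte markers, 10 lay above the Tag range on every array. Their log2 differences had a median of 0.29, with 9 above 0, and of -0.18 with scaling to the hybridization controls, and their summed signal ranged from 44267 to 54003 with PBS and from 53433 to 69434 with Dox. The 6 measured fibroblast markers had a median of -0.79, with 6 below 0, and the 7 endothelial markers one of -0.56, with 6 below 0. The 4 measured smooth muscle markers had a median of 0.39, and of -0.14 without Dox replicate 3. Of these, 3 lay above 0, and ACTA2 lay below it at -0.31. The summed signal of the 4 was 7374.6 on the array of Dox replicate 3 against 3268.2 to 4190.9 on the others. Most of that sum came from DES, at 5024.9, the desmin gene, which cardiomyocytes also transcribe. CNN1 was at 1378.5 on that array against 73.9 to 190.8 on the others. The part of such marker shifts in the differences of the iron genes was not tested.

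None of the 16 probe sets was called (0 of 16, and 0% of all probe sets, by limma; 0 also by the methods' t-test). Their adjusted p values ran from 0.521 to 0.982. FTL was the only gene with an unadjusted p of at most 0.05, at 1 of 16 probe sets (9.54% of all probe sets). The log2 difference was above 0 at 12 and below 0 at 4 of the 16, with a median of 0.29, against a median of -0.10 over all probe sets tested. These counts include 5 probe sets for which no fold is read, and over the other 11 they were 9 and 2. Each Dox-injected piglet exceeded each PBS-injected piglet at 4 of the 16 (6.19% of all probe sets), which read FTH1, FTL and SLC11A2, the last at a pair of probe sets of which 1 was in the Tag range throughout. The reverse held at 1 of the 16 (10.1% of all probe sets), another SLC11A2 probe set. Probe sets of 1 gene are not independent. With the arrays scaled to the hybridization controls the first count was 0 and the second 2. The shares of all probe sets were not computed on that scale, where the median over all probe sets was -0.57. These counts are therefore not read as a result about the members. Dox replicate 3 had the highest of the 6 signals at 10 of the 11 probe sets with fewer than 4 signals in the Tag range. Over all probe sets, those in the Tag range included, the share was 24.7%. It was not computed for probe sets filtered like the 11. The summed signal of the cardiomyocyte markers was also highest on that array, at 69434. Without Dox replicate 3 the median over the 16 was 0.03.

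**Figure D1:**
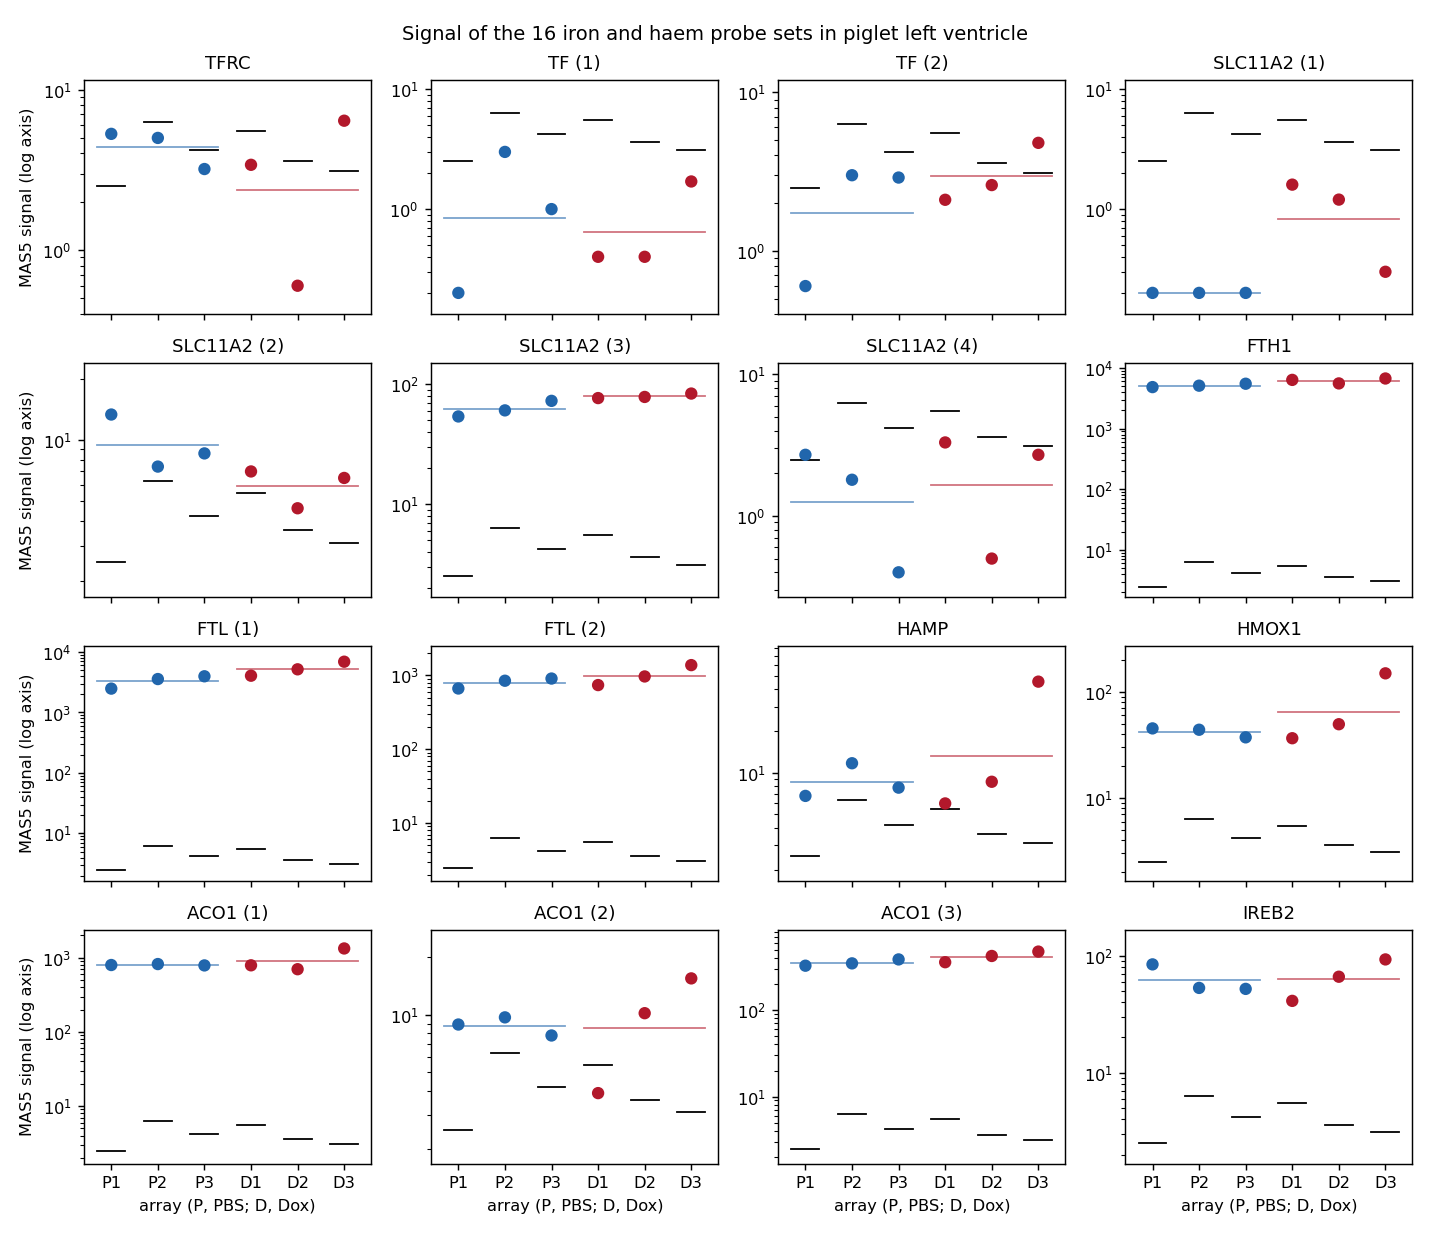
MAS5 signal (log axis) of each of the 16 probe sets on each array, with PBS-injected piglets (P1 to P3) in blue and Dox-injected piglets (D1 to D3) in red. Geometric means are drawn as coloured lines, and black dashes give the Tag maximum of the array, at 2.5 to 6.3; numbers after a gene mark its probe sets. FTH1 and FTL lie far above the dashes, TFRC and TF around or below them, and HMOX1 and HAMP stand out on the array D3 alone.

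Both ferritin chains were read far above the Tag range, and each separated the groups at 1 probe set as deposited. FTH1, the heavy chain with ferroxidase activity (Ssc.12288.1.A1_a_at), had signals of 4833.3, 5099.2 and 5490 in PBS replicates 1 to 3 and of 6352.7, 5558.6 and 6697.4 in Dox replicates 1 to 3. The lowest Dox signal exceeded the highest PBS signal by little, and Dox replicate 2 was the lowest of its group. The means were 5141 ± 330.3 (SD, n = 3) and 6203 ± 584 (SD, n = 3), a fold of 1.20 and a log2 difference of 0.27 with a 95% confidence interval of -0.05 to 0.59 (limma, adjusted p = 0.562). The difference was 0.00 after cyclic loess normalization, -0.04 after quantile normalization and -0.20 with the arrays scaled to the hybridization controls. On the last scale each Dox-injected piglet lay below each PBS-injected piglet, and the median over all probe sets was -0.57. The direction of FTH1 therefore depended on the scaling. Ferritin heavy chain belongs to a family with near-identical copies in mammalian genomes, so its signal may include copies of the gene.

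FTL, the light chain that helps to form the iron core, was read by a pair of probe sets. The first (Ssc.12373.1.S1_at) had signals of 2478.2, 3565.2 and 3962.6 in PBS replicates 1 to 3 and of 4050, 5164.5 and 6900.1 in Dox replicates 1 to 3. The groups did not overlap, although the gap between PBS replicate 3 and Dox replicate 1 was small beside the spread within each group. The means were 3335 ± 768 (SD, n = 3) and 5372 ± 1436 (SD, n = 3), a fold of 1.60 and a log2 difference of 0.68 (SE 0.24, limma, unadjusted p = 0.0219, adjusted p = 0.521; exact permutation test, p = 0.1, the smallest that 3 against 3 allow). Its range over fits that each lacked 1 array was 0.48 to 0.87, and it was 0.41 after quantile normalization and 0.21 with scaling to the hybridization controls, on which scale the groups overlapped. The second FTL probe set (Ssc.6233.1.S1_at) had signals of 664.7, 846.7 and 906.6 in PBS replicates and of 739.5, 967.6 and 1378.3 in Dox replicates, with overlap between the groups. Its log2 difference was 0.32 (95% interval -0.25 to 0.88, limma, adjusted p = 0.671), 0.08 without Dox replicate 3 and -0.15 with scaling to the hybridization controls.

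**Figure D2:**
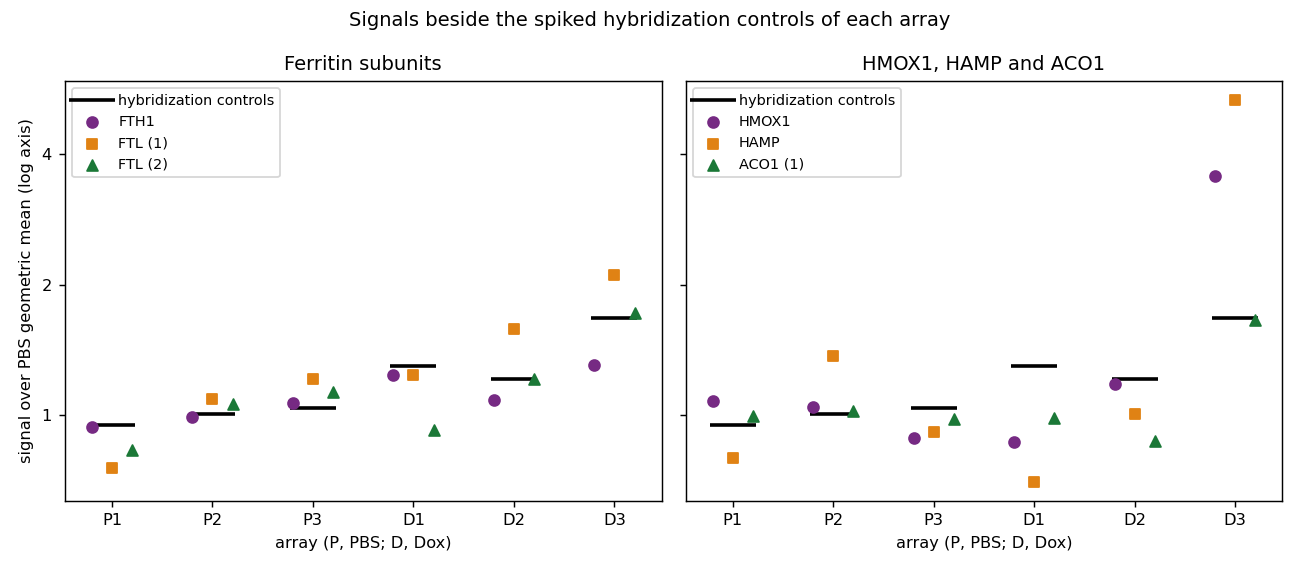
Signal of each array divided by the geometric mean of the PBS arrays (log axis) for the ferritin probe sets on the left and HMOX1, HAMP and the first ACO1 probe set on the right. Horizontal bars are the hybridization controls of each array, at 0.95 to 1.04 on the PBS arrays (P1 to P3) and at 1.30, 1.21 and 1.68 on the Dox arrays (D1 to D3); FTH1 lies below the bar on every Dox array, whereas HMOX1 and HAMP lie far above it on D3.

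HMOX1, the inducible haem oxygenase (Ssc.115.1.S1_s_at), had signals of 45.3, 44 and 37.3 in PBS replicates 1 to 3 and of 36.6, 49.6 and 149.7 in Dox replicates 1 to 3. The signal of Dox replicate 3 was far above all others, whereas Dox replicate 1 had the lowest of the 6. The means were 42.2 ± 4.29 (SD, n = 3) and 78.6 ± 61.9 (SD, n = 3), a log2 difference of 0.62 (95% interval -0.48 to 1.73, limma, adjusted p = 0.668). Without Dox replicate 3 the difference was 0.02. Macrophages, which clear red cells, are rich in HMOX1. The summed signal of 7 measured macrophage markers of 12 listed ranged from 945.7 to 1222.1 with PBS and from 851.4 to 1274.6 with Dox, with its lowest value on the array of Dox replicate 3. Single markers differed in this. AIF1 and MRC1 were also lowest on that array, at 45 against 68.2 to 120.4 and at 102 against 124.3 to 203.3 on the others. CD14 was highest on it, at 16.2 against 4.5 to 6.6 on the others, which were little above the Tag range. CD163, the haemoglobin scavenger receptor, had signals of 190.3 to 265.9 with PBS and of 250.7, 459.2 and 299.8 in Dox replicates 1 to 3. None of the 7 markers passed the test, and the part of macrophage RNA in the HMOX1 signal was not tested.

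HAMP, the hepcidin gene, which is transcribed mainly in liver but also in heart (Ssc.376.1.S1_at), had signals of 6.8, 11.7 and 7.8 in PBS replicates 1 to 3 and of 6, 8.6 and 45.4 in Dox replicates 1 to 3. All 6 signals were above the Tag range of their arrays, but only that of Dox replicate 3 was well above it. The means were 8.77 ± 2.59 (SD, n = 3) and 20 ± 22 (SD, n = 3), a log2 difference of 0.64 (95% interval -1.02 to 2.30, limma, adjusted p = 0.773). Without Dox replicate 3 it was -0.25, so that this 1 animal set the direction. In bulk tissue, more cells of a type and more RNA per cell cannot be told apart. Of 9 measured liver cell markers, 6 were in the Tag range on every array. The summed signal of the 9 ranged from 317.6 to 386.3 with PBS and from 260.6 to 313.3 with Dox, most of it from APOA1, whose signals were 284.8 to 349.1 with PBS and 205 to 256.2 with Dox. ALB, the albumin gene, went the other way, with signals of 6.9, 22 and 18.2 in PBS replicates 1 to 3 and of 12.2, 44.3 and 41.7 in Dox replicates 1 to 3. The part of liver cell RNA in the HAMP signal was not tested.

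TFRC and TF were read near background. TFRC (Ssc.38.1.S1_at), the transferrin receptor gene, had signals of 5.3, 5 and 3.2 in PBS replicates and of 3.4, 0.6 and 6.4 in Dox replicates, in the Tag range for 4 of the 6. The groups overlapped (exact permutation test, p = 0.7), and no fold is read. The symbol TF is carried by probe sets of 2 gene records that lie next to each other in the RefSeq pig annotation (Sscrofa11.1), 1 of which has the older name PICA, that of the pig inhibitor of carbonic anhydrase, a protein of the transferrin family. Its probe set may thus not read transferrin itself. The probe set of the PICA record (Ssc.16562.1.S1_at) had signals of 0.2 to 3, with 6 of 6 in the Tag range. The other TF probe set (Ssc.4222.1.S1_at) had signals of 0.6 to 4.8, with 5 of 6 there. A signal in this range does not show that the transcript is absent.

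SLC11A2, the divalent metal transporter gene, was read by 4 probe sets that did not point one way. One (Ssc.3451.1.S1_at) had signals of 54, 60.7 and 72.9 in PBS replicates 1 to 3 and of 76.9, 78.6 and 83.9 in Dox replicates 1 to 3. All Dox signals exceeded all PBS signals, with a log2 difference of 0.36 (95% interval -0.17 to 0.89, limma, adjusted p = 0.613) that was -0.10 with scaling to the hybridization controls. A second probe set (Ssc.15548.1.A1_at) had signals of 13.4, 7.4 and 8.6 in PBS replicates and of 7, 4.6 and 6.5 in Dox replicates. There all Dox signals lay below all PBS signals, with a log2 difference of -0.68 (95% interval -1.69 to 0.34, limma, adjusted p = 0.622), which was -1.14 with scaling to the hybridization controls. The other SLC11A2 probe sets had 5 and 6 of their 6 signals in the Tag range. One of these (Ssc.11031.1.A1_at) was at 0.2 on every PBS array and at 1.6, 1.2 and 0.3 on the Dox arrays, and its separation of the groups is not read as a difference.

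The iron regulatory proteins are encoded by ACO1, whose product is a cytosolic aconitase when it holds an iron-sulphur cluster, and IREB2, whose product is degraded in iron-replete cells. The first ACO1 probe set (Ssc.16544.1.S1_at) had signals of 797.7, 821.7 and 787.8 in PBS replicates and of 790.5, 700.4 and 1333.7 in Dox replicates. The PBS signals lay close together and Dox replicate 3 was alone above them, with a log2 difference of 0.17 (95% interval -0.39 to 0.73, limma, adjusted p = 0.824) that was -0.11 without that array. The third (Ssc.4767.1.S1_at) had signals of 326.4, 347.4 and 385.9 in PBS replicates and of 358.2, 423 and 475.4 in Dox replicates, a log2 difference of 0.24 (95% interval -0.18 to 0.66, limma, adjusted p = 0.668). It was -0.23 with scaling to the hybridization controls. The second (Ssc.26682.1.A1_at) was dim, at 3.9 to 15.5, with a log2 difference of -0.04 (limma, adjusted p = 0.982). IREB2 (Ssc.25315.1.S1_at) had signals of 84, 52.9 and 51.9 in PBS replicates and of 41, 65.9 and 92.6 in Dox replicates. The groups overlapped fully, with a log2 difference of 0.04 and a 95% interval of -0.77 to 0.85 (limma, adjusted p = 0.975).

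**Figure D3:**
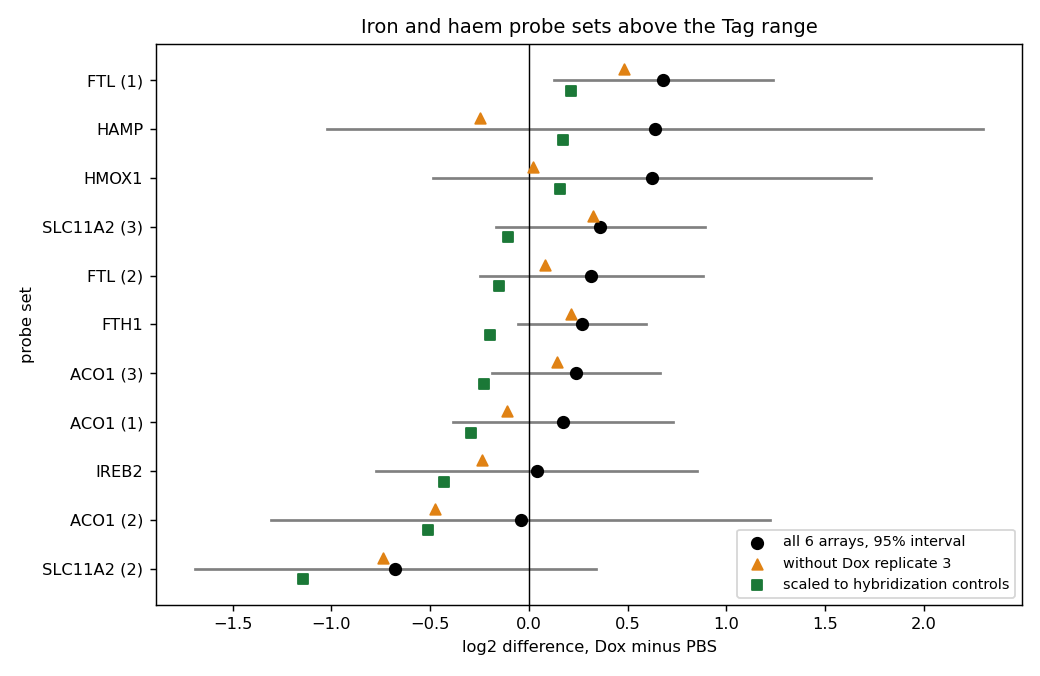
Dox minus PBS difference (log2) at the 11 probe sets with fewer than 4 signals in the Tag range. Black points and grey bars are the limma estimate and its 95% confidence interval over 6 arrays, triangles the value without Dox replicate 3 and squares the value with the arrays scaled to the hybridization controls; the interval of the first FTL probe set alone leaves out 0, and the squares lie above 0 for 3 of the 11 against 9 of the points.

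The wider system was read through a list of 81 further genes of iron and haem handling, of which 39 have a named probe set. Of these, 0 were called by limma and 0 by the methods' t-test, whereas limma gave an unadjusted p no higher than 0.05 for 6 (9.54% of all probe sets), with 5 above 0, among them HP, for which no fold is read, and 1 below 0. The log2 differences of the 39 had a median of 0.03, 20 lying above 0 and 19 below it, and a median of -0.43 with scaling to the hybridization controls. The 10 measured genes of iron-sulphur cluster assembly had a median of 0.05, and the 4 of intracellular iron handling, among them NCOA4, the receptor for ferritin breakdown, had a median of 0.13. NCOA4 itself had a log2 difference of -0.19 (limma, adjusted p = 0.709).

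In haem breakdown, HMOX2, the constitutive haem oxygenase, had the smallest unadjusted p of the 39 genes. Its signals were 178.4, 257.1 and 218.3 in PBS replicates 1 to 3 and 382.9, 530.1 and 373.7 in Dox replicates 1 to 3. All Dox signals were well above all PBS signals, with a fold of 1.96 and a log2 difference of 0.97 (SE 0.23, limma, unadjusted p = 0.0022, adjusted p = 0.521; exact permutation test, p = 0.1). The difference lay between 0.81 and 1.10 with 1 array left out and was 0.51 with scaling to the hybridization controls, where the groups overlapped. BLVRA, the gene of biliverdin reductase, which acts on the product of HMOX1 and HMOX2, had a log2 difference of -0.33 (limma, adjusted p = 0.737).

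In haem synthesis, ALAS1, the rate-limiting enzyme outside red cells, had signals of 1265.1, 1065 and 1196 in PBS replicates 1 to 3 and of 1119.3, 694.2 and 377.6 in Dox replicates 1 to 3. Dox replicates 2 and 3 were below every PBS array and Dox replicate 1 was among them, with a log2 difference of -0.82 (SE 0.35, limma, unadjusted p = 0.0442, adjusted p = 0.521). Leaving out Dox replicate 3 gave -0.41, and leaving out Dox replicate 1 gave -1.20. With scaling to the hybridization controls, which put the median over all probe sets at -0.57, it was -1.29. Each Dox-injected piglet then lay below each PBS-injected piglet. The other ALAS1 probe sets, with folds of 0.662 and 0.56 at signals of 5.5 to 19, lay on the same side. ALAD, the next enzyme of the pathway, had signals of 133.5, 154.4 and 143 in PBS replicates and of 169, 349.8 and 300.8 in Dox replicates. The groups did not overlap, and the log2 difference of 0.86 (SE 0.28, limma, adjusted p = 0.521) was 0.40 with scaling to the hybridization controls, where the groups overlapped. ALAS2, the red cell enzyme, had a log2 difference of -0.99 (limma, adjusted p = 0.716), and PBS replicate 1 was high with 437.1 against 49.9 and 58.4 in its group. Without that array the difference was 0.02. The 4 measured red cell markers, ALAS2 among them, had a median log2 difference of -0.91, with 4 below 0. AHSP, HBB and HBE1 were also highest on the array of PBS replicate 1. Their signals there were 92, 154.5 and 11.1, against at most 34.1, 130.5 and 6.2 on the others. The part of red cell RNA in the ALAS2 signal was not tested.

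NUBP1, a factor of cytosolic iron-sulphur cluster assembly, had signals of 146.6, 219.2 and 251.5 in PBS replicates and of 333, 348.5 and 418.6 in Dox replicates. The groups did not overlap, also with scaling to the hybridization controls, and the log2 difference was 0.86 (SE 0.24, limma, adjusted p = 0.521) and 0.40 on that scale. LTF, the gene of the iron-binding neutrophil granule protein lactoferrin, had signals of 6.1, 4.6 and 0.4 in PBS replicates 1 to 3 and of 8.4, 214 and 37.2 in Dox replicates 1 to 3. Dox replicates 2 and 3 were far above the PBS arrays and Dox replicate 1 just above them, with a log2 difference of 4.18 (SE 1.31, limma, adjusted p = 0.521) that was 2.94 without PBS replicate 3, 5.32 without Dox replicate 1 and 1.77 with an offset of 16 added before log2. The PBS signals of replicates 2 and 3 were in the Tag range, so the size is set against background and is not read as a fold. HP, the gene of haptoglobin, which binds free haemoglobin in plasma, had 4 of its 6 signals in the Tag range, with signals of 0.3 to 1.3 in PBS replicates and of 0.9, 84.5 and 15.9 in Dox replicates 1 to 3. Of 8 neutrophil markers listed, 5 were measured, LTF among them. Their summed signal was 19.5 to 34.1 in PBS-injected and 78.6, 1017.4 and 261.4 in Dox-injected piglets 1 to 3. This is the order seen for HP and for LTF, which is itself part of the sum. Most of the sum in the Dox-injected piglets came from S100A9, at 56.9, 681.5 and 185.9. ELANE, a marker of neutrophil precursors, had all 6 signals in the Tag range. The part of neutrophil RNA in the LTF and HP signals was not tested.

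**Figure D4:**
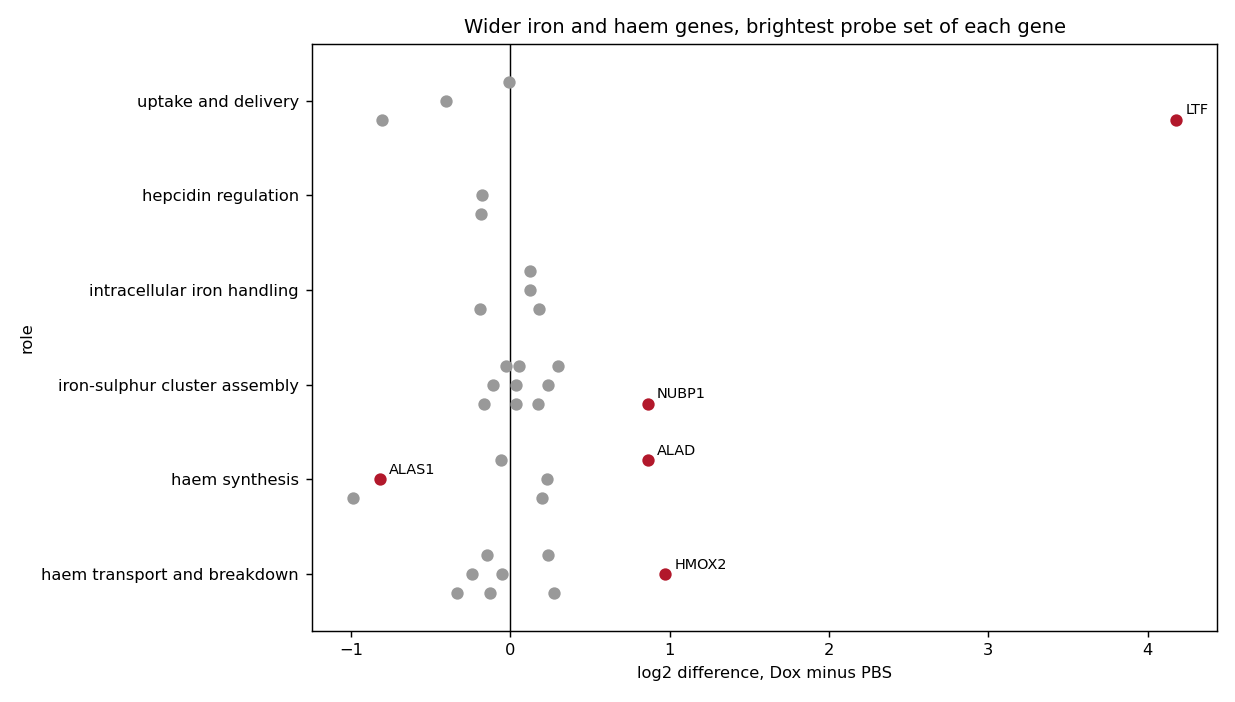
Dox minus PBS difference (log2) of the listed iron and haem genes with fewer than 4 signals in the Tag range, at the brightest probe set of each, by role. Red points passed an unadjusted p of 0.05 by limma, HMOX2 at 0.97, ALAD at 0.86, NUBP1 at 0.86, LTF at 4.18, against PBS signals of which 2 of 3 were in the Tag range, and ALAS1 at -0.82, and none had an adjusted p below 0.521; grey points are the other genes, and their vertical offsets only separate them.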

How the data were processed

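RNA of 6 piglets was measured on 6 arrays, with groups and replicate numbers taken from the sample titles. The authors deposited intensities, namely MAS5 signals from GCOS 1.4 at default settings. These are scaled to a 2% trimmed mean of 100 per array. MAS5 background correction and scaling were kept, and scanner files were not used here. A signal of 0 was raised to 0.1, log2 was taken and limma 3.58.1 in R 4.3.3 was used to fit Dox against PBS over all 6 arrays (lmFit, eBayes with an intensity trend), with Benjamini-Hochberg adjustment over 23999 probe sets, after 124 array controls were left out. The script was tested on simulated data with known changes. For single probe sets an exact permutation test, two-sided, was added. The unpaired t-test of the paper's general methods was run on log2 signals as an alternative, named the methods' t-test.

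Gene symbols came from the annotation of the platform: 10069 have 1 symbol, 198 have several and 13732 have none. Each member is given at every probe set, and genes of the wider list at their brightest probe set by geometric mean. Beside the members, listed genes with an unadjusted p of at most 0.05 were named, at most 10. BLVRA, NCOA4, ALAS2, ELANE, APOA1, ALB, CD14, CD163, AIF1, MRC1, AHSP, HBB, HBE1, S100A9, ACTA2, CNN1 and DES were chosen after their values were seen. The members and lists were chosen with earlier results of these data known. Other settings tried were cyclic loess and quantile normalization, an offset of 16 before log2, omission of dim probe sets, eBayes without a trend, the methods' t-test, a replicate block, omission of each array, averaging the probe sets of each gene, an unadjusted threshold and scaling to the hybridization controls. The number of arrays limits the precision.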

Additional observations from a re-analysis of the deposited data

How the results depend on the processing

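Of the 11 member probe sets with a fold read and the 5 named genes of the wider list with one, 16 in all, 8 kept the sign of their log2 difference under every alternative run and 8 did not. With scaling to the hybridization controls, chosen after the data were seen, the sign turned for FTH1 (-0.20), the second FTL probe set (-0.15), SLC11A2 at Ssc.3451.1.S1_at (-0.10), ACO1 (-0.29 at Ssc.16544.1.S1_at and -0.23 at Ssc.4767.1.S1_at) and IREB2 (-0.43). The median of all probe sets was then -0.57, that of the members -0.17 and that of the wider list -0.43. After quantile normalization FTH1 was at -0.037, and the dim ACO1 probe set at 0.17, at 0.14 after cyclic loess and at 0.036 with the offset. Over fits lacking 1 array each, the difference was -0.25 to 1.21 for HAMP, from -0.11 to 0.36 for the first ACO1 probe set, from -0.47 to 0.52 for the dim one and from -0.24 to 0.35 for IREB2. The count of member probe sets at an unadjusted p of at most 0.05 was 1, and 0 after quantile normalization, 2 (FTL and FTH1) without dim probe sets and 0 to 1 with 1 array left out. It was 1 without a trend (SLC11A2, within the Tag range), 1 by the methods' t-test (FTH1) and 1 with scaling to the hybridization controls (SLC11A2 at Ssc.15548.1.A1_at). The cause was not tested. Over the whole array, 0 to 14 probe sets were called with 1 array left out, 14 of them without Dox replicate 1, and 1356 passed the fold threshold of 2 with an unadjusted p of 0.05 or less; none of these was a member probe set. Same-numbered arrays of the groups did not deviate together (correlations from -0.06 to 0.02, 2 of 6 arrays closest to their own number). With the replicate block, 0 probe sets were called and 1 member probe set had an unadjusted p of at most 0.05. Signals near the Tag range, and 3 animals per group, limit what the dim genes can show.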
